A study of Homo sapiens with 12 samples.

Results

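The comparison set the 2 Dox-inducible short hairpin RNAs against PRC1 beside each other, shUTR and shCDS, and asked which genes moved with 1 of them and not with the other. It rested on 8 of the 12 arrays in the series, 1 array per condition: SK-N-MC and RDES cells, both Ewing sarcoma (EwS) cell lines, each carrying shUTR or shCDS, with Dox at 1 µg/ml for 60 h (renewed at 48 h), Dox (+), or without it, Dox (−). The 4 arrays of the non-targeting control hairpin, shCtrl, labelled SK-N-MC and RDES, were left out of the contrast and are given beside it. By expression the 2 arrays labelled RDES shCtrl lay with SK-N-MC: over 1000 genes that separate the shPRC1 arrays of the cell lines, with SK-N-MC at 0 and RDES at 1, they lay at 0.01, and the SK-N-MC shCtrl arrays at 0.15 and 0.16. The shCtrl values below therefore include no pair that matched RDES by expression. Expression was read as log2 signal on Clariom D arrays (Affymetrix, human). The derivative lines, controls included, had been transduced with a lentiviral pLKO-TET-ON vector and selected with puromycin, and whether single clones were picked is not given in the sources used here. For each gene the Dox difference, Dox (+) minus Dox (−), was taken in each line, and the contrast was the mean difference of the 2 shUTR lines minus that of the 2 shCDS lines, so that a positive contrast stood for a higher difference with shUTR. With 1 array per condition, the only replicates of a hairpin were its 2 cell lines.

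A hairpin RNA is cut by DICER1 into a short duplex, 1 strand of which, the guide, is loaded into an Argonaute protein and pairs with transcripts. Full pairing leads to cleavage of the transcript, and pairing of the guide's seed, bases 2 to 8 from its 5′ end, can lower other transcripts as a microRNA does. A transcript that falls with 1 hairpin in both cell lines, and not with another hairpin against the same gene, is therefore a candidate for an effect of that hairpin's sequence. It is not more than a candidate, because hairpins against 1 gene can also differ in how far they lower it. PRC1, the common target, bundles antiparallel microtubules at the spindle midzone and is needed for cytokinesis.

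The guide strands are shown because they are what differs between the lines compared. They are read from the study's oligonucleotide list, each with the seed in capitals:
shUTR guide: tATGTGGTagagaagtcaggc
shCDS guide: aAATGCCTttgaatgttcctg
shCtrl guide: tTGGTGCTcttcatcttgttg
Each strand had 21 bases. The guides of shUTR and shCDS held the same base at 5 of these positions, and their longest shared run was 4 bases. None of the 2370 human mature microRNAs in the RefSeq table (GRCh38.p14) shared bases 2 to 8 with any of the 3 guides. Over bases 2 to 7, the shUTR guide shared its letters with 3 of them, among them miR-299-3p, and the shCDS guide with 2, miR-365a-3p and miR-365b-3p. These 2 sequences show the match, with bases 2 to 7 in capitals and U in place of T:
miR-299-3p: uAUGUGGgaugguaaaccgcuu
miR-365a-3p: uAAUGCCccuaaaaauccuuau
A shared seed is a description of the letters. Sites for these seeds in transcripts were not searched here.

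PRC1 was the first check of the labels. Paired values of a hairpin are those of SK-N-MC and RDES, in that order. With shUTR PRC1 had log2 signals of 12.66 and 13.29 under Dox (+), against 15.59 and 14.75 under Dox (−). With shCDS it had 11.55 and 10.54 under Dox (+), against 15.56 and 14.50 under Dox (−). All 4 Dox (+) arrays lay below all 4 Dox (−) arrays, and under Dox (+) both shCDS arrays lay below both shUTR arrays. The signal left under Dox (+) was 13.1% and 36.2% with shUTR and 6.18% and 6.42% with shCDS, and in the shCtrl pairs the Dox differences were -0.12 and -0.03. The contrast of PRC1 was 1.79 (95% interval 0.90 to 2.68), which did not pass the test below (limma, adjusted p = 0.0591) and was 1.06 without the RDES shUTR pair. Of the 15194 genes tested, PRC1 was the 1 gene lower by at least 1 in all 4 lines. An effect of the hairpin sequence and an effect of the deeper PRC1 knockdown with shCDS cannot be told apart in any gene that moved with shCDS alone.

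The contrast was tested over 15194 genes with limma, with the cell line as a block, and 16 genes passed at an adjusted p under 0.05, which is 0.105% of the genes tested. Of these, 11 were higher with shUTR (0.0724%) and 5 lower (0.0329%). The higher ones were MAPK6P1, RRBP1, BNIP3L, KTN1, HMGB3, SOX11, HMGB3P6, MRPL18, PANX1, CYCSP25 and ELOVL6, with contrasts of 1.84 to 2.84. The lower ones were SF3B6, MARVELD1, HECTD3, CHCHD10 and ANKRD30BL, with contrasts of -2.71 to -1.84. In all 16 the contrast had the same sign and a size of at least 1 in both cell lines. Their choice by a mean of these same contrasts, at least 1.84 in size, made an equal sign all but fixed. It therefore adds no support. Over all genes, not chosen by size, the sign was the same in 45.5%. The fit had 1 residual degree of freedom and gave every gene the same spread (SE of a contrast 0.453, 95% interval of ± 0.888), so that genes passed by the size of their contrast alone. No gene passed once the cell line term was left out (637 genes with an unadjusted p under 0.05), the differences were centred on their medians (981), the 8 arrays were quantile normalised (1086), or each gene kept its own spread (611). Leaving out the SK-N-MC shUTR or the RDES shUTR pair also gave 0 genes (1047 and 1011 with an unadjusted p under 0.05), leaving out the SK-N-MC shCDS pair gave 26 higher and 9 lower, and leaving out the RDES shCDS pair gave 3 higher and 1 lower.

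**Figure D1:**
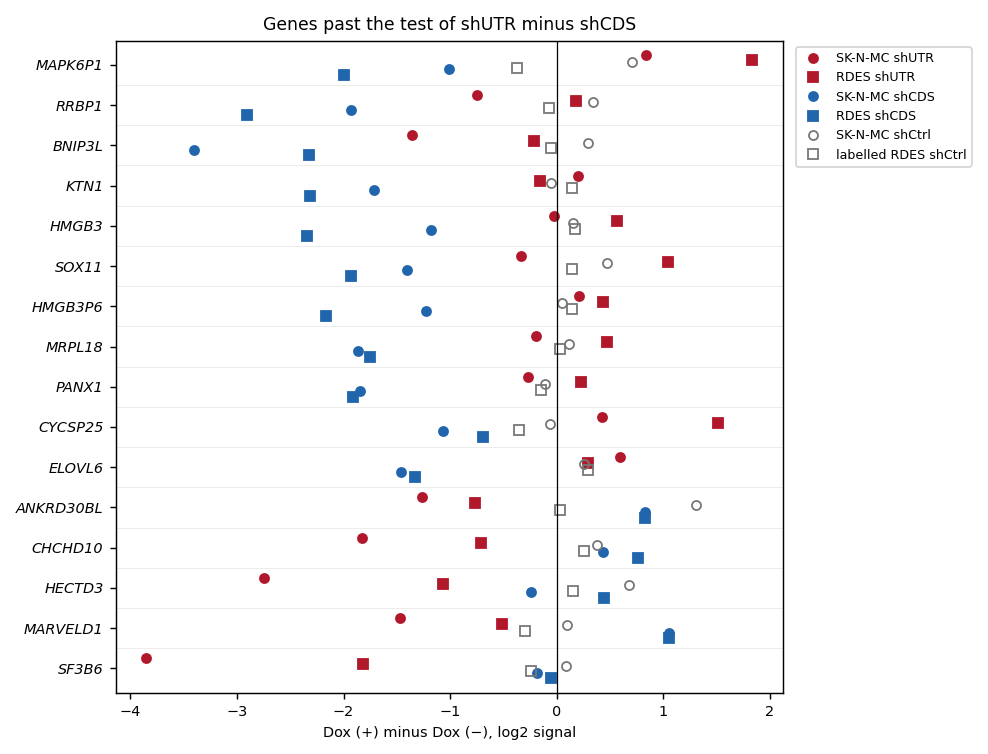
Dox (+) minus Dox (−) in log2 signal for the 16 genes that passed the test of shUTR minus shCDS, 1 symbol per line (red shUTR, blue shCDS, grey open shCtrl; circles SK-N-MC, squares RDES or so labelled). In each row both red symbols lie on one side of both blue symbols, and the blue symbols of the 11 upper genes lie between -3.41 and -0.69.

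SF3B6 had the lowest Dox difference of all genes in both shUTR lines, lower than that of the targeted gene itself. SF3B6 is a subunit of the SF3B complex of the U2 small nuclear ribonucleoprotein, and its gene is at chr2:24067586-24076326 (GRCh38). Its log2 signals with shUTR were 10.47 and 12.04 under Dox (+), against 14.32 and 13.86 under Dox (−). With shCDS they were 14.08 and 14.81 under Dox (+), against 14.26 and 14.86 under Dox (−). Both shUTR Dox (+) arrays lay below all other arrays, and in no other line, shCtrl included, did Dox (+) and Dox (−) differ by more than 0.24. The signal left was 6.94% and 28.4% with shUTR and 87.8% and 96.3% with shCDS. Of 15194 genes SF3B6 was in place 1 from the bottom in each shUTR line, where PRC1 was in places 2 and 6, and in places 3616 and 7587 in the SK-N-MC and RDES shCDS lines. The Dox difference averaged -2.83 ± 1.44 with shUTR and -0.12 ± 0.09 with shCDS (SD, n = 2 cell lines each), a contrast of -2.71 (95% interval -3.60 to -1.82, limma, adjusted p = 1.67e-05). It passed under 7 of the 13 alternatives, and its contrast was -1.70 when the SK-N-MC shUTR pair was left out and -3.73 when that of RDES was.

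No other subunit of the complex passed the test. Of the 17 SF3A, SF3B and associated U2 proteins tested, SF3B6 was the 1 that passed, 11 had a contrast above 0 and the list median was 0.17. Over all genes 7854 of 15194 had a contrast above 0 and the median was 0.02. SF3B1, the scaffold that carries the branch point site, had Dox differences of -0.07 and 0.43 with shUTR and -0.17 and -0.22 with shCDS. SF3B5 had the contrast next in size among the SF3B subunits, -0.78 (95% interval -1.67 to 0.11), with -0.68 and -0.08 in the shUTR lines and 0.73 and 0.06 in the shCDS lines.

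By size, 3 genes moved with shUTR alone, all of them lower (0.0197% of the genes tested). The rule asked for a Dox difference of at least 1 in the same direction in both cell lines of a hairpin and of less than 0.5 in size in both cell lines of the other, and it is a description with no test. The 3 genes were SF3B6, ELMOD2 and HECTD3. With the shCtrl differences subtracted, HECTD3 no longer met the rule. Its rise of 0.68 in the SK-N-MC shCtrl pair took its SK-N-MC shCDS difference past 0.5, while both shUTR falls became larger. ELMOD2, a GTPase-activating protein for ARL2 (chr4:140524168-140553770), had log2 signals with shUTR of 12.70 and 12.22 under Dox (+), against 14.32 and 13.51 under Dox (−). With shCDS ELMOD2 had 14.17 and 13.98 under Dox (+), against 14.56 and 13.86 under Dox (−). Its 2 shUTR Dox (+) arrays lay below all the others. The contrast of ELMOD2, -1.32 (95% interval -2.21 to -0.43), did not pass (limma, adjusted p = 0.534).

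HECTD3, a HECT-type E3 ubiquitin ligase (chr1:45002548-45011324), had log2 signals with shUTR of 7.71 and 9.94 under Dox (+), against 10.46 and 11.01 under Dox (−). With shCDS HECTD3 had 9.53 and 10.67 under Dox (+), against 9.78 and 10.22 under Dox (−). The SK-N-MC shUTR Dox (+) array stood apart, while the RDES shUTR Dox (+) array lay within the range of the shCDS arrays. The Dox differences with shUTR, -2.75 and -1.07, gave a contrast of -2.01 (limma, adjusted p = 0.014), which was -1.17 without the SK-N-MC shUTR pair. With shCtrl HECTD3 had Dox differences of 0.68 and 0.15.

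**Figure D2:**
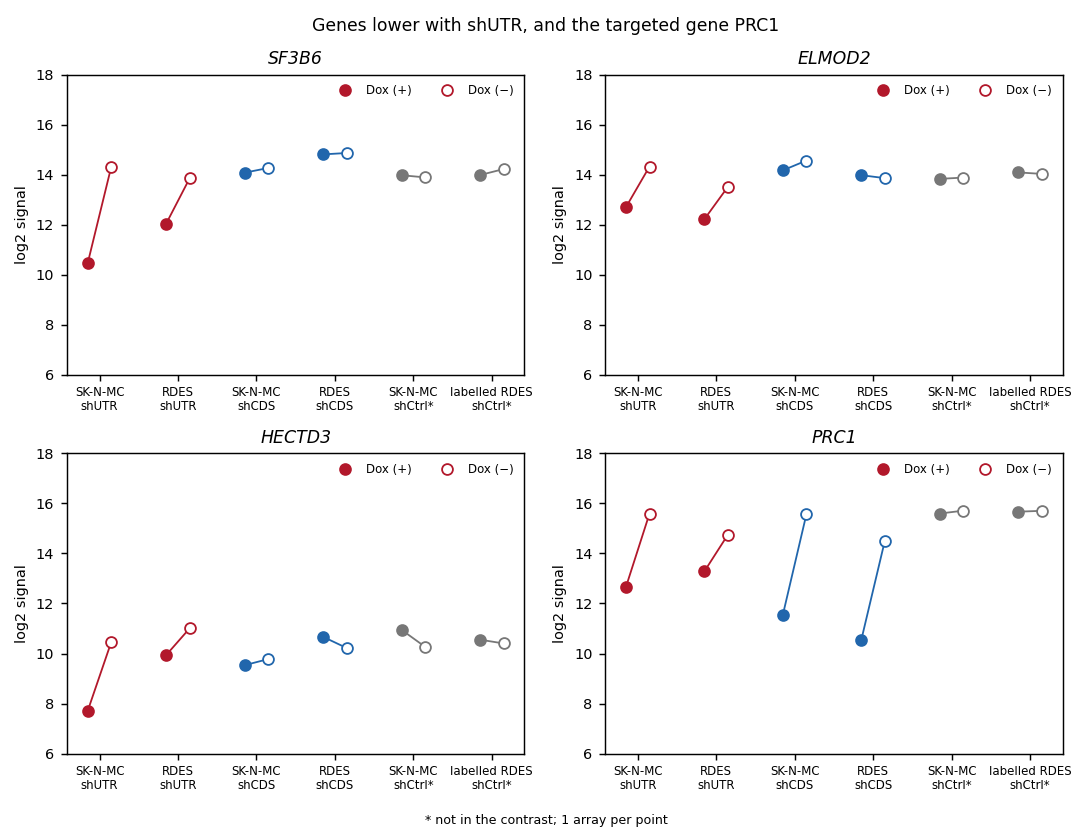
Log2 signal (y axis) of SF3B6, ELMOD2, HECTD3 and PRC1 in each line, 1 array per point, filled for Dox (+) and open for Dox (−), joined within a line. Under Dox (+) SF3B6 lies at 10.47 and 12.04 in the 2 shUTR lines, and between 13.89 and 14.86 in the other lines with or without Dox, while PRC1 is lower under Dox (+) in all 4 shPRC1 lines.

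Just outside the rule were FRRS1, with Dox differences of -1.31 and -0.91 with shUTR and -0.48 and 0.17 with shCDS, and GPR155, with -1.31 and -1.13 with shUTR and -1.57 and -0.06 with shCDS. Without the condition on the other hairpin, 5 genes were lower by at least 1 in both shUTR lines (0.0329%): PRC1, SF3B6, HECTD3, ELMOD2 and GPR155. The 1 gene higher by at least 1 in both (0.00658%) was MIR6739, a microRNA gene, with 1.26 and 1.44 with shUTR and 0.06 and -0.98 with shCDS. Its shUTR signals under Dox (−), 6.41 and 5.94, were under the 6.5 taken as limit of detection, and its shCtrl differences were 0.08 and 0.73. MIR6739 was not among those moved by shUTR alone, because of the RDES shCDS line, and the highest gene just below the size asked for was AMBN (0.84 and 1.10).

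MARVELD1, CHCHD10 and ANKRD30BL passed the test as lower with shUTR but moved in opposite directions in the lines of the 2 hairpins. MARVELD1, a membrane protein with a MARVEL domain, had Dox differences of -1.47 and -0.51 with shUTR and 1.05 and 1.06 with shCDS, a contrast of -2.05 (limma, adjusted p = 0.014). CHCHD10, a protein of the mitochondrial intermembrane space, had -1.83 and -0.71 with shUTR and 0.44 and 0.76 with shCDS, a contrast of -1.87 (adjusted p = 0.0462 by the same fit). ANKRD30BL had -1.26 and -0.77 with shUTR and 0.83 in both shCDS lines, a contrast of -1.84 (adjusted p = 0.0462 by the same fit). The SK-N-MC signals of ANKRD30BL were low, 5.70 under Dox (+) and 6.96 under Dox (−) with shUTR, and its Dox difference in the SK-N-MC shCtrl pair was 1.31, larger than in any shCDS line.

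With shCDS alone 24 genes moved lower by size (0.158% of the genes tested) and 3 higher (0.0197%). The 24 genes lay on 13 chromosomes and 21 of them were annotated as protein coding. After subtraction of the shCtrl differences 12 of the 24 still met the rule, among them KTN1, PANX1, MRPL18, HMGB3P6, NFIB, YAP1 and RBBP7, and 12 did not, among them TTL, ACTR6, RPA1 and IDH1. In ACTR6, RPA1 and IDH1 a shUTR difference then passed 0.5 in size, while both shCDS lines stayed lower by at least 1. Before subtraction the median Dox differences of the 24 genes were -0.18 and 0.09 with shUTR and -1.41 and -1.38 with shCDS, and the lowest values were -0.44 and -0.42 with shUTR and -2.16 and -2.32 with shCDS. In the shCtrl pairs the same genes ran between -0.14 and 0.54 in SK-N-MC and between -0.41 and 0.18 in the pair labelled RDES. The counts have to be read against how much each line moved: 450 genes in the SK-N-MC shUTR line and 33 in the RDES shUTR line were lower by at least 1, against 225 and 603 in the SK-N-MC and RDES shCDS lines. Higher by at least 1 were 90 and 163 genes in the SK-N-MC and RDES shUTR lines, against 139 and 173 in the shCDS lines. The RDES shUTR line, the one with the most PRC1 signal left, thus held few genes that could meet the rule for lower with shUTR, but not few that could meet it for higher.

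**Figure D3:**
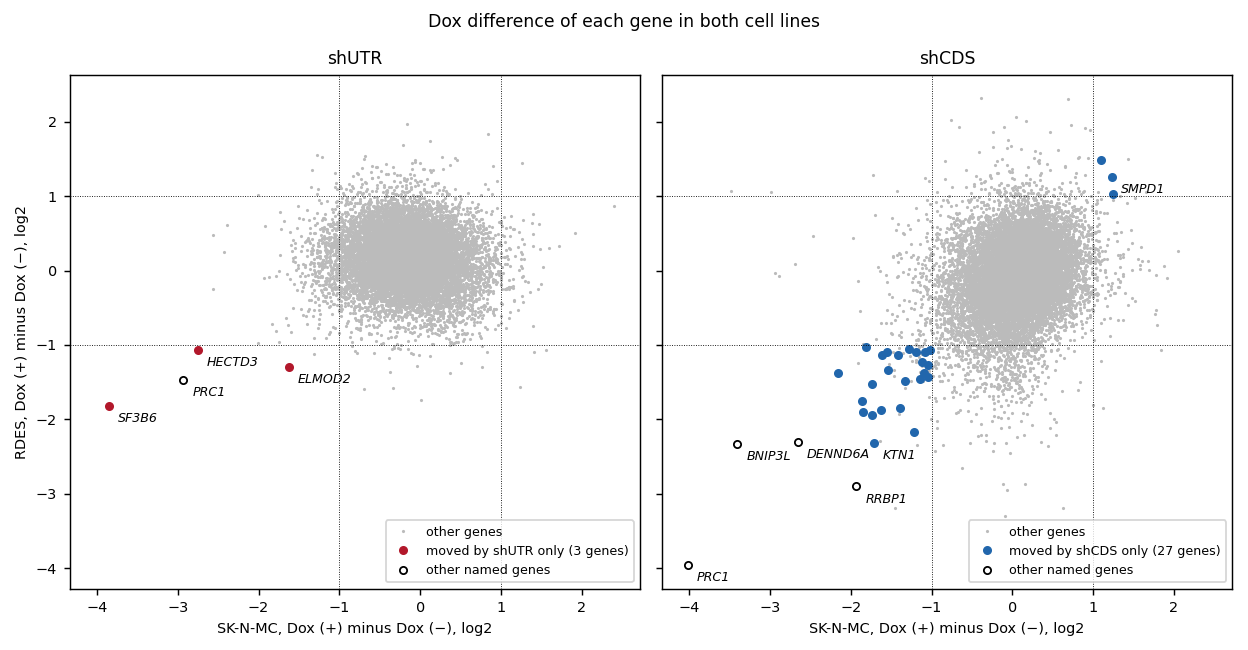
Dox (+) minus Dox (−) in log2 of each of the 15194 genes in SK-N-MC (x axis) and RDES (y axis), with shUTR in the left panel and shCDS in the right, dotted lines at -1 and 1. Filled symbols are the 3 genes moved by shUTR alone and the 27 moved by shCDS alone, and the lower left corner of the left panel holds SF3B6 beyond PRC1.

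KTN1, which encodes kinectin, a membrane protein of the endoplasmic reticulum that binds kinesin (chr14:55580207-55684584), was the gene of this group with the largest contrast. Its log2 signals with shUTR were 11.37 and 10.47 under Dox (+), against 11.17 and 10.63 under Dox (−). With shCDS they were 9.57 and 8.64 under Dox (+), against 11.28 and 10.96 under Dox (−). Both shCDS Dox (+) arrays lay below all others. The Dox difference of KTN1 averaged 0.02 ± 0.25 with shUTR and -2.02 ± 0.42 with shCDS (SD, n = 2 cell lines each), a contrast of 2.04 (95% interval 1.15 to 2.93, limma, adjusted p = 0.014). It passed under 5 of the 13 alternatives, with contrasts of 1.74 to 2.34.

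PANX1, MRPL18 and HMGB3P6 were the others of the 24 genes that also passed the test, which used the same differences as the rule. PANX1, a membrane channel protein, had Dox differences of -0.26 and 0.23 with shUTR, and with shCDS log2 signals of 9.59 and 10.51 under Dox (+), against 11.44 and 12.42 under Dox (−). MRPL18, a protein of the large subunit of the mitochondrial ribosome, had Dox differences of -0.19 and 0.48 with shUTR, and with shCDS log2 signals of 11.33 and 9.68 under Dox (+), against 13.19 and 11.44 under Dox (−). In both genes the differences of the 2 shCDS lines were close to each other, -1.85 and -1.91 in PANX1 and -1.87 and -1.75 in MRPL18. Their contrasts were 1.86 (limma, adjusted p = 0.0462) and 1.95 (limma, adjusted p = 0.0232).

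NFIB, TTL, ACTR6, RPA1, IDH1 and YAP1 were also among the 10 of the group lowest by the smaller of their differences in the 2 shCDS lines, and none of them passed the test. NFIB, a transcription factor of the nuclear factor I family, had Dox differences of -0.09 and -0.16 with shUTR and -1.74 and -1.94 with shCDS (adjusted p = 0.0786). TTL, which ligates tyrosine to the end of α-tubulin, had -0.31 and -0.09 with shUTR and -1.62 and -1.88 with shCDS. ACTR6, an actin-related protein of a chromatin remodelling complex, had -0.18 and 0.11 with shUTR and -1.74 and -1.52 with shCDS. That these genes had larger differences in both shCDS lines than in either shUTR line was fixed by the rule that chose them. RPA1, the large subunit of the single-stranded DNA binding protein RPA, had -0.27 and -0.17 with shUTR and -1.39 and -1.85 with shCDS. IDH1, the cytosolic isocitrate dehydrogenase, had -0.40 and 0.31 with shUTR and -2.16 and -1.38 with shCDS (adjusted p = 0.0759). YAP1, the transcriptional coactivator of the Hippo pathway, had -0.44 and 0.20 with shUTR and -1.54 and -1.34 with shCDS.

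**Figure D4:**
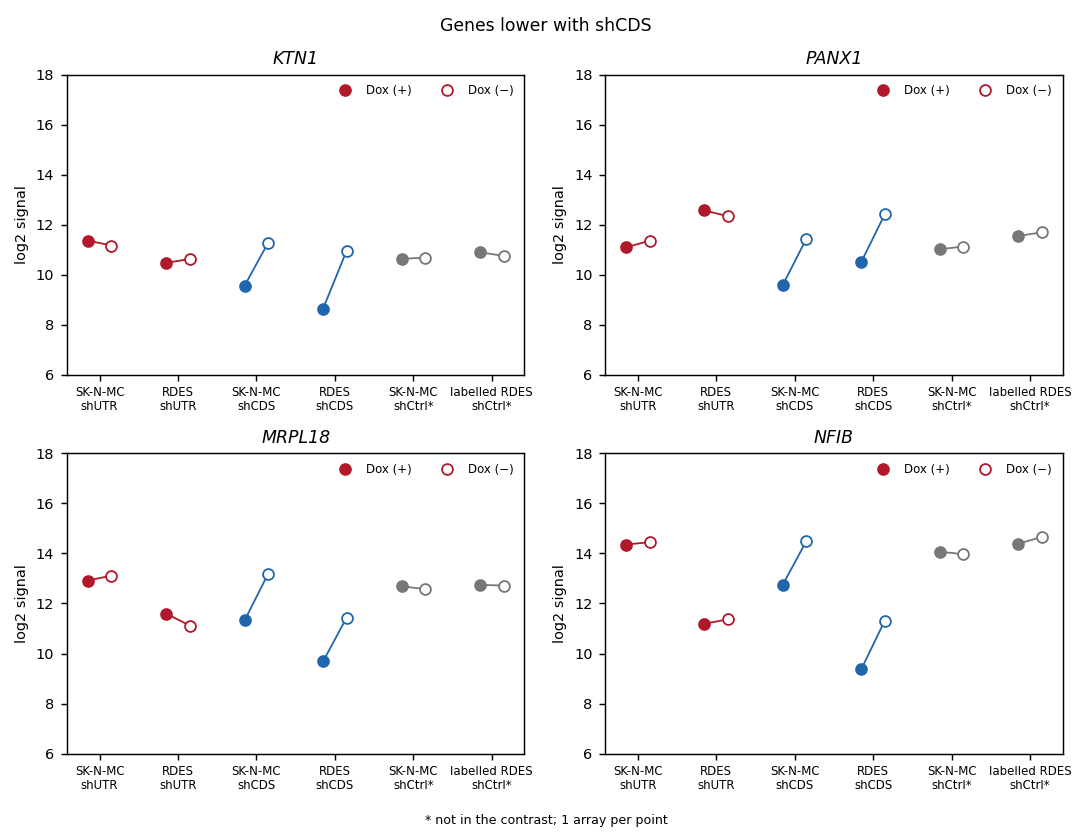
Log2 signal (y axis) of KTN1, PANX1, MRPL18 and NFIB in each line, 1 array per point, filled for Dox (+) and open for Dox (−), joined within a line. In both shCDS lines each gene is lower under Dox (+), with differences of -2.32 to -1.72. Within every shUTR line each gene differs by less than 0.5, which the rule that chose these genes asks for.

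The remaining genes of the group were RBBP7, ITSN1, ERO1A, LINC00294, CMPK1, ATP13A3, APLP2, CAVIN4, DHX9P1, ADAM22, ITGAV, TXNRD1, OPN3 and H2BC12. RBBP7, a histone-binding subunit of several chromatin complexes, had Dox differences of 0.05 and 0.07 with shUTR and -1.33 and -1.48 with shCDS. ERO1A, the oxidase that reoxidises protein disulphide isomerase in the endoplasmic reticulum, had -0.09 and -0.12 with shUTR and -1.42 and -1.14 with shCDS. APLP2, a relative of the amyloid precursor protein, was the brightest, with a mean log2 signal of 16.62 over the 6 Dox (−) arrays, and had -0.19 and -0.05 with shUTR and -1.55 and -1.09 with shCDS. In H2BC12, a histone H2B gene and the one nearest to the limit of size, the differences of -1.02 and -1.06 with shCDS stood against Dox (−) signals that differed between the lines themselves, 8.63 in SK-N-MC shUTR and 12.14 in SK-N-MC shCDS. Further probe sets of ATP13A3 and ITSN1, dimmer than those used but above the limit of detection (a mean log2 signal of 6.5 under Dox (−)), did not show the differences of the sets used. With shCDS ATP13A3 had Dox differences of -1.10 and -1.38 on the set used, at a mean log2 signal of 13.15 under Dox (−), against 0.85 and -0.84 on a set at 7.85 and -0.24 and 0.11 on a set at 7.36. ITSN1 had -1.14 and -1.45 with shCDS on the set used, at 12.58, against -0.11 and -0.38 on a set at 7.12. MIR5003 (-1.84 and -0.99 with shCDS) and PLAUR (-1.12 and -1.02 with shCDS, -0.52 in RDES shUTR) lay just outside the rule.

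SMPD1, OLFM3 and RNU6-875P were the 3 genes higher with shCDS alone. SMPD1, the lysosomal acid sphingomyelinase, had Dox differences of 0.11 and 0.41 with shUTR, and with shCDS log2 signals of 10.85 and 11.99 under Dox (+), against 9.62 and 10.73 under Dox (−). OLFM3, an olfactomedin family protein, had differences of -0.42 and 0.30 with shUTR and 1.09 and 1.49 with shCDS. In SK-N-MC 3 of its 4 shPRC1 arrays lay under the limit of detection, both shUTR arrays (5.98 under Dox (+)) and the shCDS array under Dox (−) (6.03), so that its SK-N-MC differences rest on signals near background. RNU6-875P, a pseudogene of the U6 small nuclear RNA, had 0.04 and 0.25 with shUTR, 1.25 and 1.03 with shCDS and also 1.18 in the SK-N-MC shCtrl pair. None of the 3 passed the test, and SMPD1 alone still met the rule with the shCtrl differences subtracted.

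Without the condition on shUTR, 66 genes were lower by at least 1 in both shCDS lines (0.434%) and 6 higher by as much (0.0395%). Of the 66, 32 were also lower by at least 0.5 in the SK-N-MC shUTR line, where 19.5% of all genes were, and 3 were higher by as much. In the RDES shUTR line 4 of the 66 were lower by at least 0.5 (3.34% of all genes) and 14 higher by as much (15.5% of all genes), and 2 were lower in both lines. Of the 66, 10 passed the test as higher with shUTR, where 0.0724% of all genes did. The test uses the same shCDS differences by which the 66 were chosen, so that this count adds no support. After PRC1, the lowest by the smaller of their differences were BNIP3L, DENND6A and RRBP1. BNIP3L, a mitophagy receptor of the outer mitochondrial membrane, had Dox differences of -1.35 and -0.21 with shUTR and -3.41 and -2.33 with shCDS, a contrast of 2.08 (limma, adjusted p = 0.014). Its relative BNIP3 had -1.18 and 0.10 with shUTR and -1.05 and 0.50 with shCDS, values closer within a cell line than within a hairpin. RRBP1, a ribosome receptor of the endoplasmic reticulum, had -0.75 and 0.18 with shUTR and -1.93 and -2.90 with shCDS, a contrast of 2.13 (limma, adjusted p = 0.0127). A second probe set of RRBP1, at a mean log2 signal of 4.82 under Dox (−) and so under the limit of detection used, had -0.24 and -0.46 with shUTR and 0.85 and 0.22 with shCDS. DENND6A, a guanine nucleotide exchange factor for Rab proteins, was lower with both hairpins, with differences of -1.17 and -0.91 with shUTR and -2.66 and -2.31 with shCDS, and its contrast of 1.44 did not pass.

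KTN1 and RRBP1 were the 2 genes that passed the test among the 13 genes tested of a list of kinectin, kinesin-1 subunits and sheet proteins of the endoplasmic reticulum, whose median contrast was 0.20, against 0.105% of all genes that passed. The list was drawn up around KTN1 with its values known, so that the count supports nothing about the list. CKAP4, another protein of endoplasmic reticulum sheets, had Dox differences of -0.13 and 0.27 with shUTR and -0.12 and -0.57 with shCDS. KIF5B, the kinesin-1 heavy chain that kinectin binds, had -0.32 and 0.08 with shUTR and 0.27 and -0.40 with shCDS. SOX11, a transcription factor of neural progenitors, and ELOVL6, a fatty acid elongase, also passed. SOX11 had -0.33 and 1.05 with shUTR and -1.41 and -1.93 with shCDS, a contrast of 2.03 that was 1.34 without the RDES shUTR pair. ELOVL6 had 0.59 and 0.29 with shUTR and -1.46 and -1.33 with shCDS, from signals as low as 5.90 under Dox (+) and 6.24 under Dox (−) in SK-N-MC.

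MAPK6P1 had the largest contrast of all, 2.84 (95% interval 1.96 to 3.73, limma, adjusted p = 5.38e-06). It is annotated as a pseudogene of MAPK6, which encodes the atypical kinase ERK3. With shUTR MAPK6P1 had log2 signals of 8.21 and 7.63 under Dox (+), against 7.37 and 5.79 under Dox (−). With shCDS it had 6.47 and 5.08 under Dox (+), against 7.48 and 7.07 under Dox (−). The signals were low in all lines and under the limit of detection on 3 of the 8 arrays, those at 6.47, 5.79 and 5.08, so that the size of the contrast rests in part on signals near background. The 2 RDES lines differed without Dox by more than 1, in the direction opposite to their difference with Dox. The Dox differences were 0.84 and 1.84 with shUTR and -1.01 and -1.998 with shCDS, and 0.71 and -0.37 with shCtrl.

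The gene that MAPK6P1 copies was bright and was lower with shCDS alone, by slightly less than the rule asked for. MAPK6 had log2 signals with shUTR of 15.51 and 14.65 under Dox (+), against 15.48 and 14.67 under Dox (−). With shCDS it had 14.50 and 13.55 under Dox (+), against 15.42 and 14.54 under Dox (−). Its Dox differences were 0.03 and -0.02 with shUTR and -0.92 and -0.99 with shCDS, a contrast of 0.96 that did not pass. All 3 MAPK6 pseudogenes tested were lower by at least 0.5 in both shCDS lines, and the share of all genes that were was not counted. MAPK6P3 had 0.31 and -0.38 with shUTR and -0.92 and -1.26 with shCDS, and MAPK6P5 had 0.18 and 0.71 with shUTR and -0.81 and -1.06 with shCDS. Probes against a pseudogene can take up transcripts of its parent gene, and which of them gave these signals cannot be told apart on the arrays. The differences above 0 of MAPK6P1 with shUTR, 0.84 and 1.84, had no counterpart in MAPK6.

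HMGB3 and some copies of it were likewise lower with shCDS. HMGB3, a chromatin protein with high mobility group boxes, had log2 signals with shUTR of 13.22 and 13.82 under Dox (+), against 13.24 and 13.26 under Dox (−). With shCDS it had 12.27 and 11.12 under Dox (+), against 13.45 and 13.46 under Dox (−). Its contrast was 2.03 and that of its pseudogene HMGB3P6 was 2.01 (limma, adjusted p = 0.014 each). HMGB3P6 had Dox differences of 0.21 and 0.43 with shUTR and -1.22 and -2.17 with shCDS. They were close to those of HMGB3, -0.03 and 0.56 with shUTR and -1.18 and -2.34 with shCDS. In HMGB3P6 both shCDS Dox (+) signals were under the limit of detection. The size of its contrast therefore rests in part on signals near background. Of the 9 HMGB3 pseudogenes tested, 7 had Dox differences below 0 in both shCDS lines and 3 were lower by at least 0.5 in both. CYCSP25, a pseudogene of cytochrome c, passed with a contrast of 1.85 (limma, adjusted p = 0.0462). It was higher with shUTR (0.43 and 1.51) as well as lower with shCDS (-1.06 and -0.69). Its parent CYCS had -0.07 and 0.37 with shUTR and -0.19 and -0.84 with shCDS. Of the 14 CYCS pseudogenes tested, 9 had Dox differences below 0 in both shCDS lines and 1 was lower by at least 0.5 in both. The share of all genes that met either condition was not counted, so the counts of both families are a description only. DHX9P1, moved by shCDS alone, had -1.08 and -1.10 with shCDS, and its parent DHX9 had -0.27 and -0.65. The shCDS Dox (+) signals of DHX9P1, 5.86 and 6.18, were likewise under the limit of detection.

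The contrast also took in a difference of the RDES shCDS line in cell cycle genes. The 54 genes of the G2/M phase list had a median contrast of 0.55 with 53 of them above 0, and none passed the test. Their median Dox differences were -0.35 and 0.12 with shUTR, against -0.02 and -1.47 with shCDS. The sign of the median contrast differed between cell lines, -0.29 in SK-N-MC and 1.51 in RDES. The replication-dependent histones (median contrast 0.66, 46 of 50 above 0), the S phase list (0.52, 43 of 47) and the spindle midzone and cytokinesis list (0.53, 20 of 26) also had median contrasts of opposite sign in the cell lines. In SK-N-MC these were -0.27, -0.16 and -0.27, while RDES had 1.63, 1.17 and 1.43. Over all genes the median contrast was 0.02, with -0.21 in SK-N-MC and 0.23 in RDES, and 7854 of 15194 genes were above 0.

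Among the lists of responses that are not tied to 1 hairpin sequence, 1 gene passed, BNIP3L of the hypoxia and glycolysis list (1 of 27 tested). Over all genes 16 of 15194 passed (0.105%), so that a short list with none that passed says little about its response. A contrast above 0 was found in 7854 of the 15194 genes. The median Dox differences of all genes were -0.15 and 0.17 with shUTR, 0.07 and -0.05 with shCDS and 0.11 and -0.07 in the shCtrl pairs. The hypoxia and glycolysis list had a median contrast of 0.01 with 14 genes above 0. Its median Dox differences were -0.53 and 0.08 with shUTR, -0.46 and 0.02 with shCDS and 0.18 and -0.06 in the shCtrl pairs. The interferon response list, which double-stranded RNA can induce, had a median contrast of 0.02, 8 of 16 genes above 0 and none that passed, and its median Dox differences were -0.34 and 0.15 with shUTR, -0.19 and 0.07 with shCDS and 0.16 and 0.02 in the shCtrl pairs. The RNA interference machinery had a median contrast of -0.04, 5 of 13 genes above 0 and none that passed. The ATF4 target list, genes of the amino acid and endoplasmic reticulum stress responses, had 24 of 28 genes above 0 and a median contrast of 0.36, with median Dox differences of 0.56 and 0.32 with shUTR and 0.42 and -0.14 with shCDS. In the shCtrl pairs its median Dox differences were 0.71 and 0.29. No gene of the ATF4 target list passed. The cholesterol synthesis list had median Dox differences of -0.46 and 0.14 with shUTR, -0.82 and -0.07 with shCDS and 0.11 and -0.03 in the shCtrl pairs, and none of its 20 genes passed. The p53 target list had a median contrast of 0.01 (9 of 18 above 0) and the apoptosis regulators 0.00 (13 of 23 above 0), and no gene of either passed.

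**Figure D5:**
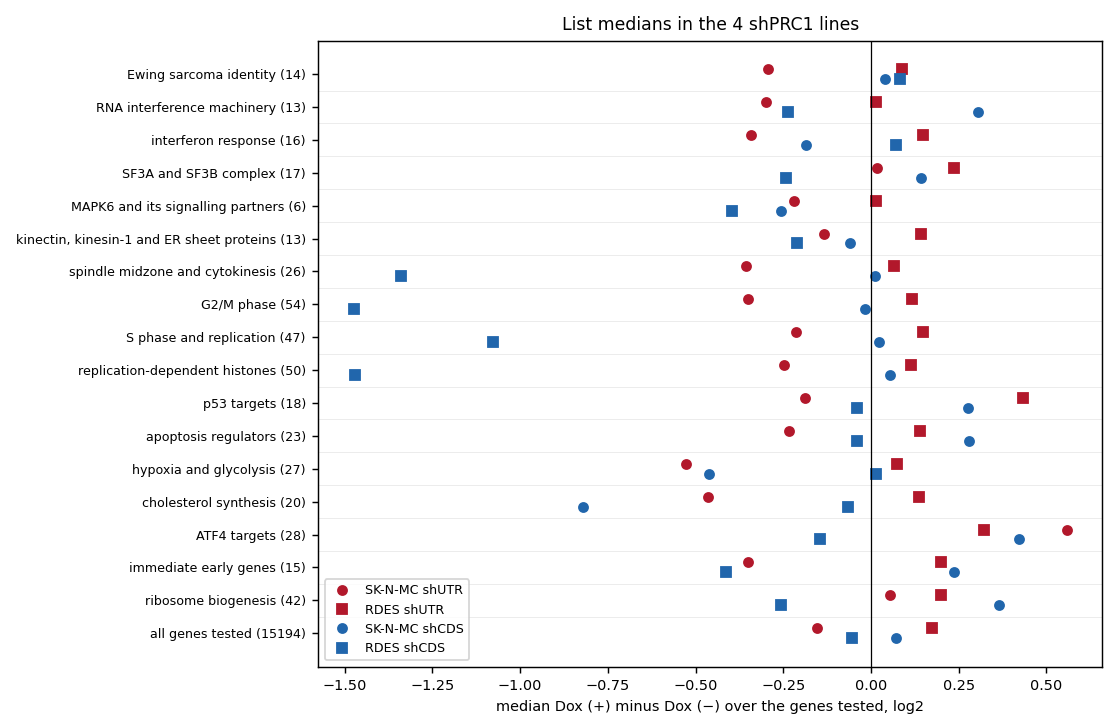
Median Dox (+) minus Dox (−) in log2 over the genes tested of each list (number in brackets), 1 symbol per line (red shUTR, blue shCDS; circles SK-N-MC, squares RDES). The RDES shCDS line stands apart in the G2/M, S phase, histone and midzone lists, between -1.47 and -1.08, while the other lines lie between -0.36 and 0.15 there.

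Across the 15194 genes, the Dox differences of the 2 shUTR lines had a Pearson correlation of -0.05 and those of the 2 shCDS lines of 0.24, where genes are not independent replicates. Between hairpins the correlation was 0.24 in SK-N-MC and -0.08 in RDES. Over all genes the lines of 1 hairpin were no more alike than the lines of 1 parental cell line.

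All 14 EwS identity genes on the arrays were at or above the limit of detection, with CD99 between 13.99 and 16.84 and STEAP1 between 13.68 and 16.04 over the 8 arrays. Of the markers of other cell types, 4 of 14 epithelial, 3 of 12 haematopoietic, 2 of 12 endothelial and 9 of 11 fibroblast genes were at or above it. The summed signal of the fibroblast list was 13.59 to 14.34 in log2 under Dox (+) and close to 13.99 in both lines under Dox (−) with shUTR, and 13.48 to 13.96 and 13.79 to 14.09 with shCDS. The markers EPCAM (4.47 to 5.89), PECAM1 (4.74 to 6.44) and CDH5 (3.79 to 4.45) stayed below the limit on all 8 arrays, and PTPRC ran from 6.10 to 7.03. Other members of the same lists lay above it. Mean log2 signals over the Dox (−) arrays were 10.36 for KRT18 and 8.61 for KRT8, both epithelial, and 10.84 for the endothelial EMCN. The shCtrl arrays entered the choice of probe sets and the limit of detection but not the contrast, and with the limit set on the 4 shPRC1 Dox (−) arrays instead the same numbers of genes passed, 11 higher and 5 lower.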

How the data were processed

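The deposited values were log2 signals of 135750 probe sets on 12 Human Affymetrix Clariom D arrays, which the authors normalised by SST-RMA. Per the labels, RMA and the hg38 build were used, the series text names Expression Console 1.4 and the methods name Transcriptome Analysis Console. 1 gene symbol was given for 36176 probe sets, several for 1119 and none for 98455; 623 symbols were updated. The brightest probe set over the 12 arrays stood for each of 33458 genes, and the 15194 with a mean of at least 6.5 over the Dox (−) arrays, the limit of detection here, were tested. The 4 Dox differences of each gene entered a limma fit (version 3.58.1, R 4.3.3) with terms for hairpin and cell line, and Benjamini-Hochberg adjustment ran over all genes. The cell line pairs the hairpins, because same-named lines derive from 1 parental line. The prior degrees of freedom were infinite, so that all genes shared 1 spread. The fit was tested on simulated data.

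Genes named were PRC1, SF3B6, MAPK6P1, KTN1 and their relatives, all that passed, up to 10 for each hairpin and direction by their smaller difference, and up to 3 a list; genes just outside the rule, DENND6A, ERO1A, APLP2, H2BC12, BNIP3 and the pseudogene families were chosen after their values were seen. The members and lists were chosen with earlier results of these data known. Each condition had 1 array, and their number limits the precision. The p-values of the fit reported rest on 1 spread shared by all genes. That spread measures how far the contrast differed between the cell lines, pooled over genes. It holds neither a gene's own spread nor any spread between repeated arrays of a condition. Gene positions and microRNA sequences are from RefSeq (GRCh38.p14). Sequences of transcripts were not used here.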

Additional observations from a re-analysis of the deposited data

Results flagged for a closer look

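16 genes were looked at again because the Dox effect differed between the hairpins by the test of the difference itself. The contrasts, shUTR minus shCDS in log2, were 2.84 for MAPK6P1, 2.13 for RRBP1, 2.08 for BNIP3L, 2.04 for KTN1, 2.03 for HMGB3, 2.03 for SOX11, 2.01 for HMGB3P6, 1.95 for MRPL18, 1.86 for PANX1, 1.85 for CYCSP25 and 1.84 for ELOVL6. They were -2.71 for SF3B6, -2.05 for MARVELD1, -2.01 for HECTD3, -1.87 for CHCHD10 and -1.84 for ANKRD30BL. Of the 13 alternatives in which single genes were followed, MAPK6P1 passed in 6 and SF3B6 in 7, and every other gene in 3 to 5. In the fit that also held the shCtrl pairs as labelled, MAPK6P1 and SF3B6 were the 2 genes that passed (limma, adjusted p = 0.00707 and 0.0105).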

How the results depend on the processing

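The counts of genes that passed as higher and lower were 11 and 5. They were 21 and 10 with no filter, 20 and 3 with a variance trend and 1 and 1 with the shCtrl differences in the fit, of which the pair labelled RDES lay with SK-N-MC by expression. They were 0 and 0 by limma with the differences centred on their medians (981 genes with an unadjusted p under 0.05) and after quantile normalisation of the 8 arrays (1086), by least squares with no shared variance (611), and, as an alternative chosen after seeing the data, over 37532 probe sets of the array, where 1586 had an unadjusted p under 0.05. Without the cell line as replicate block they were also 0 and 0, with 637 unadjusted p-values under 0.05. The prior degrees of freedom were 6.01 after centring, 6.27 after quantile normalisation and 9.43 without the block, and infinite in the fit reported. Leaving out each pair of arrays in turn gave 0 to 26 higher and 0 to 9 lower, by fits without a cell line term that assume the lone line to vary like the others. Of 234 values of single genes under alternatives, 94 kept their side of the threshold, 138 lost it, 2 gained it and 0 changed sign. The values gained were of PRC1. PRC1 and ELMOD2, which did not pass in the fit reported, are among the 234, so that a value kept is not always a pass. The genes that passed did so in 3 to 7 of the 13 alternatives.

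Genes moved by 1 hairpin numbered 3 lower and 0 higher with shUTR, and 24 lower and 3 higher with shCDS. At a size of 0.8 they were 12, 2, 58 and 19 in the same order. With the other hairpin allowed up to 1, there was 1 higher with shUTR and 52 lower with shCDS. With the shCtrl difference subtracted, which for RDES is that of the pair that lay with SK-N-MC and so no RDES control, 3 were higher with shUTR, and 2 of the 3 lower with shUTR and 12 of the 24 lower with shCDS were kept. With no filter, shUTR gave 5 lower and 6 higher, and with centring 1 higher. With 1 line of a hairpin left out, which lets the other line decide alone, the ranges were 3 to 183 and 0 to 75 for shUTR and 31 to 329 and 4 to 80 for shCDS.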
